A study of Mus musculus with 6 samples.

Results

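Transcripts of 6 chemokine receptors, Ccr1, Ccr2, Ccr7, Ccrl2, Cx3cr1 and Cxcr4, were followed in mouse bone marrow-derived macrophages exposed to plastic particles. They were taken by gene symbol from the 40213 genes of the deposited count tables, and all 6 passed the expression filter that left 12893 genes for testing. Marrow of C57BL/6 mice had been cultured for 4 days in medium with 10% serum, antibiotics and an antifungal, to which macrophage colony-stimulating factor was added at 25 ng/ml. The 3 control samples received no particles, and the 3 MNP samples received polystyrene micro- and nanoplastics (50 µg, with the volume and particle size not given in the sources used here) for 24 h. Age and sex of the animals, and whether replicates came from separate animals or cultures, are not given either, so p-values measure the spread between these samples, which may be technical. The comparison asks which receptor transcripts differ between exposed and unexposed macrophages.

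Chemokine receptors are G protein-coupled receptors through which leukocytes sense gradients of small secreted proteins and move along them. Most couple to Gi proteins and are then desensitized by G protein-coupled receptor kinases and arrestins. In the monocyte and macrophage lineage, CCR2 guides monocytes out of the marrow and into inflamed tissue, CXCR4 retains cells in the marrow, and CX3CR1 binds the membrane-tethered chemokine fractalkine and is typical of patrolling monocytes and many resident macrophages. CCR1 binds several inflammatory CC chemokines, CCR7 leads mature dendritic cells to lymph nodes, and CCRL2 is an atypical receptor that binds the chemoattractant chemerin without classical signalling.

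The libraries held between 20262859 and 23042146 counts each. Levels are given in CPM, that is, counts divided by TMM-adjusted library sizes and brought to the same total, and a single count equalled 0.0424 to 0.0483 CPM. Macrophage markers were abundant: the summed level of 8 macrophage markers, among them Lyz2, Csf1r and Adgre1, was 18938 to 19639 CPM in controls and 16817 to 17841 CPM in MNP samples. Most of that sum was Lyz2 (14779 ± 339 CPM in controls and 13152 ± 446 CPM in MNP samples). Some library measures split by group. Controls had a count for 20222 to 24062 genes, the most in control 1, and MNP samples for 18240 to 18672. TMM factors were 1.02 to 1.04 in controls and 0.958 to 0.978 in MNP samples, and the structural RNA Rn7s2 made up 3.83% to 4.42% of each control library and 4.58% to 4.91% of each MNP library. These differences cannot be told apart from the treatment, and their part in the receptor differences was not tested. The related Rn7s1 overlapped between groups, at 0.0791% to 0.166% in controls and 0.154% to 0.247% in MNP samples. In MNP sample 1 another structural RNA, Gm26917, took 1.02% of counts, against 0.250% to 0.444% elsewhere. The mitochondrial mt-Rnr1 and mt-Rnr2 were also highest there, mt-Rnr2 at 0.0925%, against 0.0191% to 0.0284% elsewhere.

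Of the 6 receptors, Ccr2 fell, none rose, and the other 5 did not pass the test at an adjusted p under 0.05 (edgeR quasi-likelihood test, Benjamini-Hochberg adjustment over all tested genes). Among all tested genes 18.5% were called, made up of 8.88% lower and 9.65% higher in MNP samples, so 1 of 6 is close to the background. With library totals in place of TMM factors, 795 genes were called higher and 2072 lower, against 1244 and 1145, and 4 of the 6 receptors were called lower. Without control 1, or without MNP sample 1, Ccr2 was again the 1 receptor called, and without MNP sample 2 there were 2. No receptor was higher at an unadjusted p under 0.05 either, or called higher by DESeq2 or limma-voom. The median log2 fold change of the 6 was -0.25, against -0.01 over all tested genes.

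Ccr2, the receptor for the monocyte chemoattractant CCL2, was lower in every MNP sample than in any control. Its counts were 1767, 1973 and 1849 in controls 1 to 3 and 1026, 1190 and 1136 in MNP samples 1 to 3. Scaled, these came to 84.7, 85.8 and 78.4 CPM in controls and 49.6, 53.7 and 54.3 CPM in MNP samples, with no overlap between the groups. The mean went from 83.0 ± 3.97 to 52.5 ± 2.55 CPM (SD, n = 3 each), which is 1.58-fold lower (log2 fold change -0.66 ± 0.07 SE, 95% interval -0.80 to -0.51, edgeR adjusted p = 4.65e-07). The call held in all 15 alternatives run, with values between -0.75 and -0.61. The exact two-sided permutation test of the mean CPM gave p = 0.1, the smallest that 3 samples against 3 allow. Any groups without overlap give this value, as did Ccrl2 and Cx3cr1, which were not called. In bulk RNA, fewer Ccr2-bearing cells and less Ccr2 RNA per cell cannot be told apart.

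**Figure D1:**
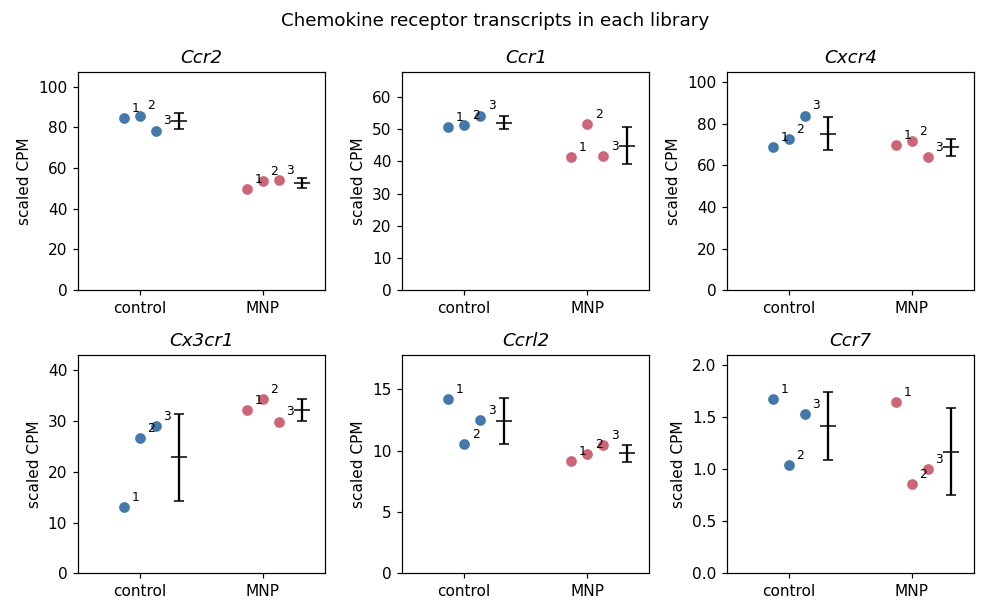
Scaled CPM of each receptor (vertical axis, from 0) in the 3 control (blue) and 3 MNP (red) libraries, numbered by replicate, with black bars for mean ± SD. Ccr2 lay between 78.4 and 85.8 CPM in controls and between 49.6 and 54.3 CPM in MNP samples, and for Cx3cr1 control 1 lay far below the other 5 libraries.

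Of 13 ligands of the 6 receptors, 10 were tested, 3 fell (30% called, against 18.5% of all tested genes) and 0 rose, with Mif alone higher at an unadjusted p under 0.05 and a median log2 fold change of -0.34. The ligand that defines CCR2 biology, Ccl2, went from 92.9, 134 and 146 CPM in controls 1 to 3 to 63.0, 70.6 and 68.7 CPM in MNP samples 1 to 3, a fall of 0.88 ± 0.19 SE on the log2 scale (edgeR adjusted p = 0.0388). Its groups did not overlap, yet the call was lost with limma-voom (adjusted p = 0.0537) and without control 2 (-0.83, adjusted p = 0.103), MNP sample 1 (-0.83, 0.132), MNP sample 2 (-0.91, 0.0990) or MNP sample 3 (-0.89, 0.108). Ccl7, which also signals through CCR1, fell 1.44-fold from 13.8 ± 2.62 to 9.55 ± 2.01 CPM (edgeR adjusted p = 0.0357) with overlapping groups. That call was lost without control 2 (adjusted p = 0.141), control 3 (0.137), MNP sample 1 (0.133) or MNP sample 3 (0.183). Ccl12, a further mouse ligand, lay near 1 CPM (1.26 ± 0.232 and 0.756 ± 0.224 CPM, edgeR adjusted p = 0.262).

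Ccr1 gave 50.6, 51.4 and 54.3 CPM in controls and 41.4, 51.6 and 41.7 CPM in MNP samples. MNP sample 2 lay within the control range and the other MNP samples below it, so the groups overlapped. The log2 fold change was -0.21 ± 0.09 SE (95% interval -0.40 to -0.03, edgeR adjusted p = 0.0966). Without MNP sample 2 it was -0.32 and passed (adjusted p = 0.0197), as it did with library totals alone (-0.30, adjusted p = 0.0183). Among the CCR1 ligands, Ccl6 went from 464, 410 and 481 CPM in controls to 159, 180 and 205 CPM in MNP samples, a fall of 1.32 ± 0.09 SE on the log2 scale (edgeR adjusted p = 1.84e-06). Ccl9, at 1154 ± 113 and 1034 ± 75.0 CPM, did not pass (log2 fold change -0.16, edgeR adjusted p = 0.146), except without control 1 (-0.22, adjusted p = 0.00632), with library totals alone (-0.25, 0.0140) and with the replicate number as a block (-0.16, 0.0152), nor did Ccl3 (15.6 ± 3.77 and 14.1 ± 0.944 CPM, adjusted p = 0.542). Ccl5 lay between 0 and 0.959 CPM (adjusted p = 0.361).

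Cxcr4, the receptor for CXCL12, gave 68.9, 72.8 and 84.0 CPM in controls and 69.9, 71.7 and 64.2 CPM in MNP samples. Control 1 lay within the MNP range, control 2 just above it and control 3 well above it. The log2 fold change was -0.13 ± 0.08 SE (95% interval -0.29 to 0.03, edgeR adjusted p = 0.260). It was -0.04 without control 3, and it passed with library totals alone (-0.22, adjusted p = 0.0460). Of the ligands, Cxcl12 was measured at 0.467 to 1.10 CPM in controls and 0.496 to 0.908 CPM in MNP samples. The cytokine Mif, which also binds CXCR4, was at 54.7 ± 3.80 and 63.6 ± 4.96 CPM (log2 fold change 0.22 ± 0.08 SE, edgeR adjusted p = 0.0566), and it passed without control 3 (0.28, adjusted p = 0.0286) or MNP sample 3 (0.29, adjusted p = 0.0351) and with no filter (0.25, adjusted p = 0.0165).

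Cx3cr1 was the only one of the 6 with a positive difference, and its size rested on 1 control library. It gave 13.1, 26.6 and 29.0 CPM in controls 1 to 3 and 32.2, 34.4 and 29.9 CPM in MNP samples 1 to 3. Every MNP value lay above every control value, but MNP sample 3 exceeded control 3 by less than 1 CPM, while control 1 lay far below the other 5 libraries. The log2 fold change of 0.49 ± 0.33 SE (95% interval -0.38 to 1.36) did not pass (edgeR adjusted p = 0.405). Without control 1 it was 0.22 (adjusted p = 0.122), without control 2 it was 0.61 and without control 3 it was 0.70. Control 1 was also the library with a count for the most genes, and the part of this in its low Cx3cr1 value was not tested. Its ligand Cx3cl1 was at 0.435 to 0.671 CPM in controls and 0.478 to 0.628 CPM in MNP samples.

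Ccrl2 gave 14.2, 10.6 and 12.5 CPM in controls and 9.13, 9.74 and 10.5 CPM in MNP samples. The groups did not overlap, with control 2 and MNP sample 3 almost level. The log2 fold change was -0.34 ± 0.14 SE (95% interval -0.63 to -0.06) and did not pass (edgeR adjusted p = 0.0913), except with library totals alone (-0.43, adjusted p = 0.0288). Groups without overlap were found for 3 of the 6 receptors and for 34.6% of all tested genes. Of these 3 receptors, Ccr2 and Ccrl2 were lower in MNP samples and Cx3cr1 was higher. Of all tested genes, 17.4% were lower without overlap and 17.2% were higher without overlap. Rarres2, which encodes chemerin, was under the filter, at 0 to 0.240 CPM in controls and 0.0451 to 1.11 CPM in MNP samples. In the list of other chemoattractant receptors, the chemerin receptor that does signal, Cmklr1, fell 1.67-fold from 17.5 ± 2.18 to 10.5 ± 1.31 CPM (edgeR adjusted p = 0.000304).

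Ccr7 was the scarcest of the 6, with 35, 24 and 36 counts in controls and 34, 19 and 21 counts in MNP samples. These equal 1.68, 1.04 and 1.53 CPM and 1.64, 0.857 and 1.00 CPM. The groups overlapped over most of their range, and the 95% interval of the log2 fold change of -0.28 ± 0.40 SE ran from -1.12 to 0.57 (edgeR adjusted p = 0.698), so differences in either direction lie within it. It was -0.60 without MNP sample 1 and -0.09 without MNP sample 2. Of its ligands, Ccl19 had no count in any library (a count of 0 allows up to 0.127 to 0.145 CPM, counting error only) and Ccl21a had counts in control 2 alone.

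Setting receptors against each other within a library removes the scaling factor. Ccr2 counts were 6.47, 3.22 and 2.71 times those of Cx3cr1 in controls and 1.54, 1.56 and 1.81 times in MNP samples. Against Cxcr4 the ratio was 1.23, 1.18 and 0.933 in controls and 0.709, 0.748 and 0.845 in MNP samples, and against Ccr1 it was 1.67, 1.67 and 1.45 in the controls and 1.20, 1.04 and 1.30 in the MNP samples. The groups of these ratios did not overlap, nor did those of Ccr2 over Ccrl2 (5.95 to 8.12 and 5.19 to 5.51), whereas Ccr2 over Ccr7 overlapped. In all, 7 of 15 pairs did not overlap, each of them with Ccr2 or Cx3cr1, so these pairs are not independent. The share over all pairs of tested genes was not computed, and 34.6% of single tested genes did not overlap. In the ratios with Cx3cr1, control 1 lay far from the other controls. With 3 samples against 3 the smallest p an exact two-sided permutation test can give is 0.1, which these 7 reached (0.214 after Benjamini-Hochberg adjustment over the 15 pairs), so no ratio could pass.

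**Figure D2:**
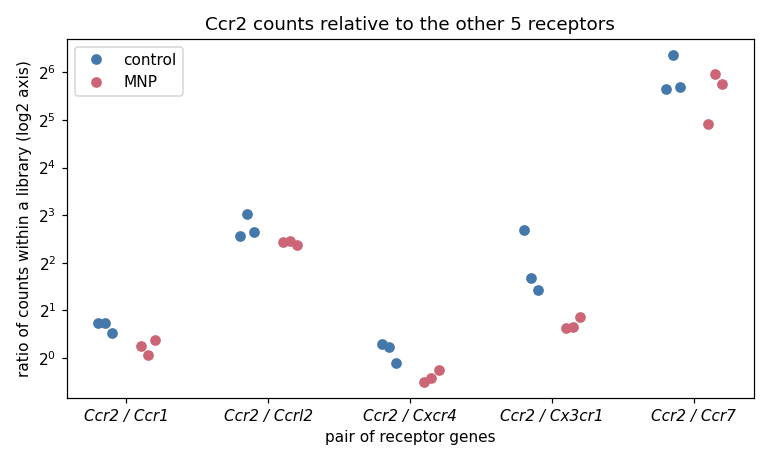
Ratio of Ccr2 counts to the counts of each other receptor within a library (vertical log2 axis) for 3 control (blue) and 3 MNP (red) libraries. The ratio to Cx3cr1 lay at 2.71 to 6.47 in controls and 1.54 to 1.81 in MNP samples, and only the ratio to Ccr7 overlapped between groups.

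Levels of different genes can be set side by side only per length, taken here as the longest transcript with a curated RefSeq match in GENCODE M21. On that scale of CPM per kilobase, the order in controls was Cxcr4 (41.7 ± 4.35), Ccr2 (27.7 ± 1.32), Ccr1 (18.4 ± 0.681), Cx3cr1 (6.10 ± 2.28), Ccrl2 (5.05 ± 0.746) and Ccr7 (0.716 ± 0.167). Cx3cr1 and Ccrl2 overlapped between control libraries, and the other neighbours did not. In MNP samples the order was the same, but Ccr2 (17.5 ± 0.851) now overlapped with Ccr1 (15.9 ± 2.06), and Cx3cr1 (8.58 ± 0.598) stood clear of Ccrl2 (3.98 ± 0.271). With the longest annotated Ccr2 transcript, Ccr2 came to 14.5 ± 0.693 and 9.17 ± 0.446 CPM per kilobase, below Ccr1 in both groups, so the rank of Ccr2 depends on the transcript assumed.

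A further 17 chemokine receptors were mostly scarce. Ccr1l1, Ccr4, Ccr6, Ccr8, Ccr10, Cxcr1, Cxcr5, Cxcr6, Xcr1 and Ackr1 to Ackr4, 13 in all, were under the filter, with no value above the 0.719 CPM of Xcr1 in control 1. Of the 4 tested, 2 fell (50% called, against 18.5% of all tested genes) and 0 rose, none of them higher at an unadjusted p under 0.05, and the median log2 fold change was -0.77. Cxcr2 (2.26 ± 0.371 and 1.60 ± 0.351 CPM) and Cxcr3 (1.36 ± 0.310 and 1.93 ± 0.836 CPM) did not pass. Ccr3, the eotaxin receptor, fell 2.06-fold from 13.7 ± 3.18 to 6.67 ± 1.44 CPM (edgeR adjusted p = 0.000671). Ccr9 was at 0.623 to 1.43 CPM in controls and 0 to 0.316 CPM in MNP samples (adjusted p = 0.0171), a log2 fold change of -2.51 whose call was lost without control 2 (-2.02, adjusted p = 0.154), MNP sample 1 (-1.95, 0.0802) or MNP sample 3 (-2.46, 0.109). As shares of the counts on these 23 receptors, Ccr2 went from 31.2% ± 2.87 to 23.8% ± 1.27, Cx3cr1 from 8.47% ± 2.82 to 14.6% ± 0.595, Cxcr4 from 28.1% ± 1.75 to 31.2% ± 1.46 and Ccr1 from 19.5% ± 0.641 to 20.3% ± 1.57. The groups did not overlap for Ccr2 and Cx3cr1 and overlapped for Cxcr4 and Ccr1. A share can rise because other receptors fall, and the log2 fold changes of Cxcr4 (-0.13) and Ccr1 (-0.21) were negative. The Cx3cr1 share was 5.22% in control 1, against 9.80% and 10.4% in controls 2 and 3. These shares are not per length and do not rank the genes.

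**Figure D3:**
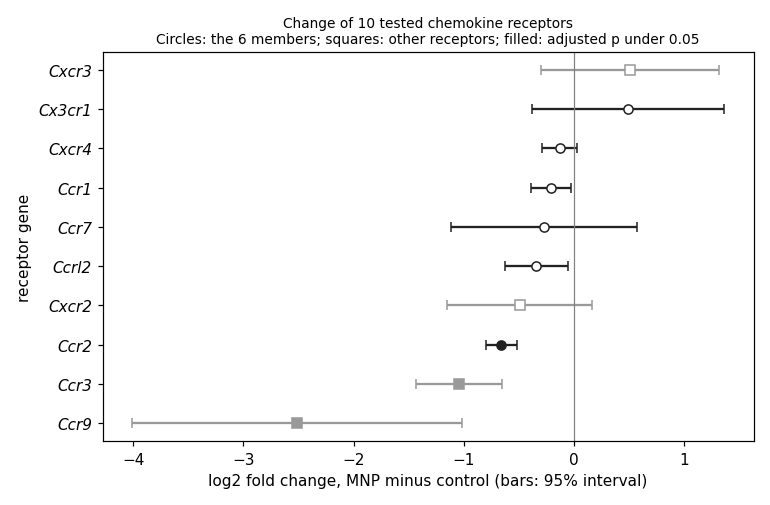
Log2 fold change, MNP minus control (horizontal axis), of 10 tested chemokine receptors with 95% intervals; circles are the 6 receptors described here, squares other tested receptors, and filled symbols passed at an adjusted p under 0.05. Ccr2 (-0.66), Ccr3 (-1.04) and Ccr9 (-2.51) passed, all lower.

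Position links some of these genes. Of these 23 receptor genes, 14 lie on chromosome 9 of the mouse (order taken from the GRCm38.p6 annotation), among them Ccr1, Ccr2, Ccrl2 and Cx3cr1. Consecutive protein-coding genes there include the run Ccr1, Ccr1l1, Ccr3 and Ccr2. Within this run Ccr3 and Ccr2 fell, Ccr1 did not pass and Ccr1l1 was under the filter. Of 2950 distinct 50-base words of the Ccr2 transcript, 110 (3.73%) also occur in transcripts of another gene, so a small part of its counts depends on how shared reads were assigned. Ccr1, Ccr7, Ccrl2 and Cxcr4 shared no such word with another gene, and Cx3cr1 shared 0.459%. Cx3cr1 overlaps the predicted gene Gm33858, which had 0 to 11 counts in a library, so the share of each is uncertain without a stated strand setting.

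The promoters of Ccr2, the receptor that fell, of Ccr1, at the other end of that run, which did not pass, and of Cx3cr1, whose difference had the opposite sign, are shown for comparison. Each window runs from 250 bases before to 50 bases after the RefSeq start in GRCm38.p6 and is written 5′ to 3′ on the gene's strand. Capitals mark matches to the PU.1 core GAGGAA on either strand.
Ccr2 (chr9:124101933-124102232, plus strand): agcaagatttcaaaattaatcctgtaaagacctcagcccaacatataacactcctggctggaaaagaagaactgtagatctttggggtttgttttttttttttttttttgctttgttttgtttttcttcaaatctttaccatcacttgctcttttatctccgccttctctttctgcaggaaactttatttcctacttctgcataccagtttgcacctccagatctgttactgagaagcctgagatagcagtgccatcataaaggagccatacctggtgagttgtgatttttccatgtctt
Ccr1 (chr9:123968643-123968942, minus strand): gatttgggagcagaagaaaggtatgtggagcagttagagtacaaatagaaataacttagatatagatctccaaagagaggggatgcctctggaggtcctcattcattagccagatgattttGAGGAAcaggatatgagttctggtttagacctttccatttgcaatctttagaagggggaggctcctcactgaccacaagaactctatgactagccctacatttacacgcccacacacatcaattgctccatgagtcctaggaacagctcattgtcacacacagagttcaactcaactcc
Cx3cr1 (chr9:120068247-120068546, minus strand): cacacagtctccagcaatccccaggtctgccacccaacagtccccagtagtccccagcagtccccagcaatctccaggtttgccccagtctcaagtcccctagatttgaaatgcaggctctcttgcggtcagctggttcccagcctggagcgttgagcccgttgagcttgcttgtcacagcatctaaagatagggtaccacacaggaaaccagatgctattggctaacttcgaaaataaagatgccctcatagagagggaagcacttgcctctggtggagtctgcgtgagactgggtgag

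Windows were found for 5 of the 6 receptors and not for Ccr7. The PU.1 core, bound by a master regulator of macrophage genes, occurred in the Ccr1 window alone, at bases -129 to -124, and in 28.3% of all 32851 windows of the table. The antioxidant response element TGACNNNGC, bound by NRF2, occurred in 1 of the 3 Ccrl2 windows, at bases -42 to -34, and in 12.4% of all windows. The interferon response element, searched as GAAA, any 2 bases and GAAA (3.44% of all windows) and the AP-1 site TGANTCA (7.81%) occurred in none of the 7 windows of these receptors. Both strands were searched, and no match overlapped another. A match describes these letters and is not evidence of a bound site, nor does its absence say anything about the factor.

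Genes that couple chemokine receptors to movement or switch them off went both ways. Of 27 such genes, all tested, 3 were called higher and 8 lower, 40.7% against 18.5% of all tested genes, and the median log2 fold change was 0.01. The G protein subunit Gng2 fell 1.47-fold from 128 ± 8.07 to 86.9 ± 5.64 CPM (edgeR adjusted p = 1.75e-06). Dock2, a Rac activator needed for leukocyte migration, fell 1.29-fold (adjusted p = 0.000163), Grk3, a kinase that desensitizes receptors, fell 1.61-fold (adjusted p = 0.000692) and the phosphoinositide 3-kinase subunit Pik3r6 fell 1.48-fold (adjusted p = 0.00275). Elmo1, a partner of DOCK proteins, rose 1.26-fold from 72.9 ± 3.57 to 91.7 ± 5.75 CPM (adjusted p = 0.00112). The number called higher was 7 without control 1.

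Other receptors for chemoattractants also split. Of 14, 12 were tested, and 4 rose and 4 fell, 66.7% against 18.5%, and the median log2 fold change was 0.04. The platelet-activating factor receptor Ptafr fell 1.38-fold from 392 ± 22.3 to 284 ± 16.4 CPM (edgeR adjusted p = 8.28e-06), and the nucleotide receptor P2ry12 fell 2.56-fold from 4.33 ± 0.845 to 1.69 ± 0.318 CPM (adjusted p = 0.000604). Of the 3 complement receptors, C5ar2 did not pass (16.8 ± 2.05 and 18.8 ± 1.79 CPM, edgeR adjusted p = 0.385), C5ar1 rose by 0.26 ± 0.06 SE on the log2 scale, from 255 ± 12.9 to 306 ± 12.5 CPM (adjusted p = 0.00248), and C3ar1 rose 1.18-fold (log2 fold change 0.24, adjusted p = 0.0136). The C3ar1 call was lost with library totals alone (adjusted p = 0.0940) and without control 2 (adjusted p = 0.0687), MNP sample 2 (0.0701) or MNP sample 3 (0.105). The number of receptors called higher was 1 without control 2 or MNP sample 2, and 2 without MNP sample 1 or 3.

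Some markers of related cells fell as Ccr2 did, and their part in its fall was not tested. The shares called stood at 40% of monocyte, 50% of dendritic cell, 44.4% of neutrophil and 62.5% of macrophage markers tested, against 18.5% of all tested genes. Of 5 monocyte markers 2 fell, Plac8 and Vcan, none rose, and Ly6c2, which defines inflammatory monocytes, was at 1.30 to 4.52 CPM without passing. The Plac8 call was lost without control 2 (log2 fold change -0.91, adjusted p = 0.146) or MNP sample 3 (-0.96, 0.0871). The monocyte sum was 40.02 to 49.2 CPM in controls and 37.1 to 40.2 CPM in MNP samples, ranges that overlap, and most of it was Spn (30.5 ± 4.04 and 30.6 ± 0.898 CPM). Of 10 dendritic cell markers 8 were tested and 4 fell, Ccl22, Siglech, Batf3 and Itgax. The summed level of all 10 was 405 to 476 CPM in controls and 356 to 393 CPM in MNP samples. Nearly all of it was Itgax, which macrophages also express and which passed in 9 of 15 alternatives. The Itgax log2 fold change was -0.10 without control 1 (adjusted p = 0.223), -0.16 without MNP sample 2 (0.226) and -0.18 without MNP sample 3 (0.171). The Batf3 call was lost without MNP sample 2 (adjusted p = 0.0694) or 3 (0.0598), and that of Siglech without control 2 (0.0644). Of 10 neutrophil markers 9 were tested and 4 fell, Ltf, Mpo, Retnlg and S100a9. The summed level of all 10 was 185 to 274 CPM in controls and 135 to 154 CPM in MNP samples. Each of the 4 that fell passed in all 15 alternatives. S100a8, Cxcr2, Camp, Ngp and Elane did not pass in the reported fit, and Ly6g was under the filter. Of the 9 tested, 8 had a negative log2 fold change and 1, Elane, a positive one (0.25, edgeR adjusted p = 0.626). Of the 8 macrophage markers 4 fell, of which Adgre1 and Mertk passed in all 15 alternatives, Fcgr1 in 14 and Lyz2 in 8. Cd68 alone was called higher, and it passed in 6 of 15. Lyz2 did not pass without control 2 or 3 or any 1 MNP sample (log2 fold change -0.19 to -0.14), and Cd68 did not pass without control 1 or 2 or any 1 MNP sample (0.19 to 0.29). Mast cell and basophil, B cell, T and NK cell and stromal markers each summed to under 3 CPM per list in every library, with Cd3e and Ncr1 at 0 in all 6, and none of their 3 tested markers was called.

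By pattern across the 6 libraries, measured as the root mean square difference of centred log2 CPM against 9541 genes whose mean reached 5 CPM, Ccr2 lay closest to Dcbld2 (0.03) and Epsti1 (0.05). Dcbld2 went from 46.9 ± 2.88 to 29.0 ± 1.95 CPM and Epsti1, an interferon-inducible gene, from 60.8 ± 2.65 to 38.3 ± 1.83 CPM. Both were picked for their likeness to Ccr2 in these libraries, so a fall like that of Ccr2 follows from the choice. The median difference to all compared genes was 0.35. Ccr1 lay closest to Ngdn and Nxt2 (0.04 and 0.05), Cxcr4 to B3gnt2 and Zfp874a (0.03 each), and Ccrl2 to Erbb3 and Capn5 (0.02 and 0.05). For Cx3cr1 the nearest, Plscr4 and Lmtk2, were farther off (0.13 and 0.14), as they were for Ccr7 (Abtb1 and Zfp526, 0.14 and 0.15). Ccr7, itself under 5 CPM with 19 to 36 counts in a library, was compared with 9542 genes.

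**Figure D4:**
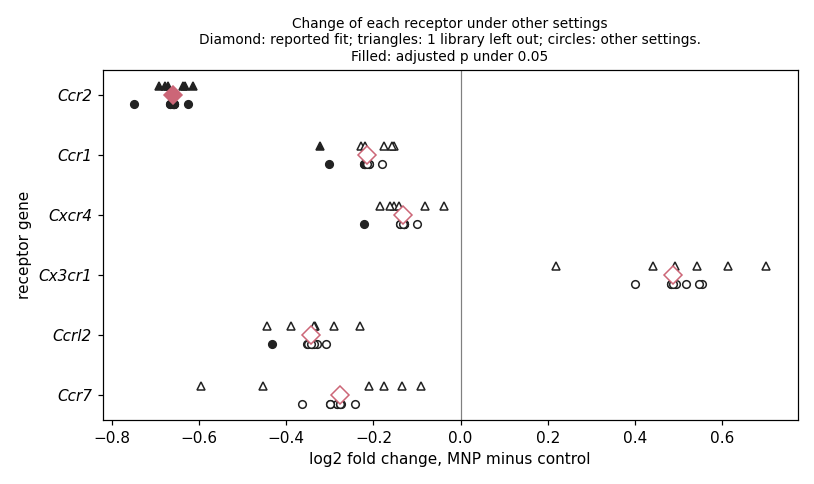
Log2 fold change of each receptor (horizontal axis) in the reported fit (diamond), with 1 library left out (triangles) and under other settings (circles); filled symbols passed at an adjusted p under 0.05. Ccr2 passed in all 15 alternatives (-0.75 to -0.61), Ccr1 in 3 of 15, Ccrl2 and Cxcr4 in 1 of 15 each, and Cx3cr1 and Ccr7 in none.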

How the data were processed

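RNA of 6 libraries, 3 control and 3 MNP, had been extracted and made into total RNA libraries with the CORALL RNA-seq V2 kit, per the labels' protocols. Each deposited file gives unnormalized counts by gene symbol. The submitters' processing notes name GATK, fastp, Salmon, STAR and the build GRCm39, without roles. The sources used here do not state the annotation, strand setting, use of molecular identifiers or rounding, so overlapping genes cannot be separated. The test was that of edgeR 4.0.16 under R 4.3.3 (TMM factors, default expression filter, robust quasi-likelihood fit, MNP minus control), with Benjamini-Hochberg adjustment over 12893 genes and a threshold of 0.05. The SE is the size of the log2 fold change divided by the root of its F statistic. The steps were tested on simulated data in which 200 genes were changed, with scarce genes left out of the 200. Of those changed 1.5-fold 77% were recovered, of those changed 2-fold 94%, and 6.04% of calls were false. Replicate pairs differed by more than sampling noise (chi-square per degree of freedom 6.65 to 17.6). Same-numbered control and MNP libraries did not deviate together (correlations 0.09, 0.03 and -0.02), so no block was used. Alternatives were RLE, upper-quartile and library-total scaling, no filter, a stricter filter, DESeq2 1.42.0, limma-voom (limma 3.58.1), the replicate block, omission of each library, stricter thresholds and, chosen after seeing the data, a fit without robust estimation. Named genes are the 6 receptors, their family, their ligands, up to 5 called genes with the smallest p from 2 further lists, the 2 genes nearest each receptor by pattern, and cell type markers. No protein sequences were used. Some genes of the lists are not reported here and were left out of list counts, shares and sums. The members and lists were chosen with earlier results of these data known. Promoter sequences are from RefSeq (GRCm38.p6), a build other than that of the counts, matched by symbol. Intervals of log2 fold changes are from the edgeR fit and include the spread between samples, while limits from a count of 0 cover counting error only.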

Additional observations from a re-analysis of the deposited data

How the results depend on the processing

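The fall of Ccr2 kept its direction and its side of the threshold in all 15 alternatives, and no receptor changed sign in any of them. With library totals alone, 4 receptors were called lower, since Ccr1 (-0.30), Ccrl2 (-0.43) and Cxcr4 (-0.22) joined Ccr2, 795 genes in all were called higher and 2072 lower, and 1 other chemoattractant receptor was called higher. With the replicate block Ccr1 was -0.22 and passed (adjusted p = 0.0498), 2 receptors were called lower, 1 ligand higher and 7 coupling and desensitization genes higher. Of all genes, 1541 were then called higher and 1366 lower. Whether same-numbered samples are paired is not given. With no filter, 6 coupling and desensitization genes and 1 ligand were called higher. With the stricter filter Ccr9 was not tested, and 1 further chemokine receptor was called lower, against 2. At an adjusted p under 0.01, 797 genes were called higher and 698 lower, with 1 ligand lower, 1 further chemokine receptor lower and 1 other chemoattractant receptor higher; with a 1.5-fold minimum, 384 and 510 genes were called. Leaving out 1 library gave -0.32 to -0.15 for Ccr1, 1 to 2 receptors called lower, 740 to 1152 genes called lower in all (740 without MNP sample 2), 0 to 1 ligands higher and 1 to 4 lower, 1 to 2 further chemokine receptors lower, 2 to 7 coupling and desensitization genes higher, and 1 to 4 other chemoattractant receptors higher. Where an arm was left with 2 libraries, fewer samples entered the fit. Without control 1, 1366 genes were called higher and 1152 lower, against 1244 and 1145 with all libraries. The causes of these shifts were not tested. Ccr7 had 19 to 36 counts in a library, the fewest of the 6. The calls of Ccr1, Ccrl2 and Cxcr4 with library totals alone go with a median log2 fold change of all tested genes of -0.10 there, against -0.01.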
